A study of Mus musculus with 23 samples.

Results

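Leukemia inhibitory factor (LIF) signalling was followed through 9 genes chosen by name: Lif, Lifr, Il6st, Jak1, Stat3, Socs3, Pim1, Klf5 and Gbx2. They are 9 of 23363 gene names with a usable value in the RNA-seq tables. Each was a single row, quantified without failure in all 6 RNA-seq samples, and all 9 passed the filter on low values that 12997 genes passed. LIF is a cytokine of the interleukin-6 family that holds mouse embryonic stem cells (ESCs) in the undifferentiated state. It binds the LIF receptor, encoded by Lifr, which then joins gp130, the shared signal-transducing receptor encoded by Il6st. The kinase JAK1, bound to the receptor tails, phosphorylates the transcription factor STAT3, which enters the nucleus and activates genes that include Socs3, Pim1, Klf5 and Gbx2. SOCS3 in turn binds gp130 and JAK kinases and dampens the signal.

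PolyA+ RNA was sequenced from Kdm2b fl/fl mouse ESCs (the line MS12 KDM2Bfl/fl, at passage 10 to 20), as 3 samples labelled untreated and 3 labelled as treated with 800 nM 4-hydroxytamoxifen for 72 hr. The text of the series gives the dose as 800 µM. Both groups carry loxP sites on both Kdm2b alleles around an exon for most of the ZF-CxxC domain, the part of KDM2B that binds nonmethylated CpG dinucleotides, and both carry an ERT2Cre recombinase inserted at Rosa26 that tamoxifen activates. Both groups were also given LIF protein (10 ng/mL) and 15% serum throughout, and were grown on inactivated mouse embryonic fibroblasts before settling overnight without these feeder cells. No tamoxifen-treated line without the floxed alleles was among the RNA-seq samples, so an effect of the drug and of the deletion cannot be told apart. The samples of a group are biological triplicates by the study's methods, and all come from a single cell line. Neither the methods nor the labels say how the replicates were kept apart, and the p-values measure the spread between these samples. The sample labels define the groups here. File names point the other way for each of the 6 samples, and if they were right every difference below would have the opposite sign and the same size.

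Levels are given as deposited, in FPKM (fragments of a gene, divided by its length and by the sample's total), a scale on which genes of different length can be compared. The number of reads behind a value is unknown. The FPKM of a sample summed to between 549379 and 1045707, and 11524 to 11923 genes per sample had at least 1 FPKM. Markers of ESCs summed to between 2885 and 5555 FPKM over 8 genes, all of them at 1 FPKM or more in every sample. Kdm2b itself had 27.0, 21.5 and 27.7 FPKM in untreated replicates 1, 2 and 3 and 19.9, 21.9 and 25.0 in tamoxifen replicates 1, 2 and 3, but a value for the whole gene does not resolve the deleted exon and so checks nothing about the labels. Samples that carry the same replicate number in the 2 groups deviated together, so each comparison is given without and with that number as a block.

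The sequences around the starts of these genes differed in the letters that the deleted domain reads. Over the 500 bases before and the 500 bases after the deposited start, 8 of the 9 genes were CpG-rich (at least 0.6 times the number of CpG dinucleotides that the C and G content predicts, with at least 55% GC), against 61.91% of the 12172 tested genes with a usable window. The exception was Lif, with 15 CpG dinucleotides in these 1000 bases and a ratio of 0.17. Lifr, at the other end, had 129 CpG dinucleotides and a ratio of 0.98. The stretches just before these starts are shown because Lif and Lifr had the lowest and the highest CpG ratio of the list over the 1000 bases. Each CG is in capitals, 5′ to 3′ on the plus strand of NCBIM37 (mm9). The Lif stretch, chr11:4157371-4157559, holds 3 CpG in 189 bases, and the Lifr stretch, chr15:7079372-7079558, holds 34 in 187 bases. Both stop short of the deposited start at an annotated exon.
Lif: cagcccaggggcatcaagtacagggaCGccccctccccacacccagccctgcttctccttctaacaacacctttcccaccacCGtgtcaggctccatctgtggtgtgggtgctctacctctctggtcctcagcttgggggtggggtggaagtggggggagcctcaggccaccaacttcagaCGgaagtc
Lifr: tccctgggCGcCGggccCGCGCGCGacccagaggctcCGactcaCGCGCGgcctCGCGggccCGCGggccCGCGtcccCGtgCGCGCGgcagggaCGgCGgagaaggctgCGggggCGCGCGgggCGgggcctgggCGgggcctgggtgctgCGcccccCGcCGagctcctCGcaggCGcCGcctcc

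STAT dimers bind palindromes of the form TTCNNNGAA, which reads the same on both strands, and STAT3 is known for the narrower form TTCCNGGAA. In the 500 bases before the start, 1 of the 9 genes held the wider motif, against 14.23% of 20864 gene windows, and none held the narrower one, against 1.77%. The match was at Socs3, and began 154 bases before the start (chr11:117830826-117830834, minus strand).
Socs3: TTCTTAGAA
A match is a run of letters and not a binding site, and windows of this size leave out enhancers. The Socs3 window also covers annotated Socs3 exon, which lies beyond the 8 bases just before the deposited start. ChIP-seq values were not analysed here, so nothing is known from these files of KDM2B or RING1B at any of the 9 genes.

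The 9 genes spanned a wide range of levels in untreated cells. Pim1, a serine/threonine kinase gene, was highest at 111 ± 29.0 FPKM (SD, n = 3), above 95.2% of all tested genes. Klf5, a Krüppel-like transcription factor gene, followed at 50.1 ± 12.0 FPKM, and Socs3 at 34.3 ± 12.1 FPKM. Stat3 (19.5 ± 2.76 FPKM), Gbx2 (17.2 ± 5.84 FPKM) and Jak1 (15.0 ± 2.73 FPKM) came next, and the receptor genes Il6st (12.3 ± 5.11 FPKM) and Lifr (8.45 ± 2.98 FPKM) after them. Lif was lowest at 5.69 ± 1.16 FPKM, above 37.3% of tested genes. In this order the sample ranges of Pim1 and Klf5 did not overlap, nor did those of Socs3 and Stat3, while every other pair of neighbours overlapped. The order in the tamoxifen samples was the same for the first 4 genes and for Lifr and Lif at the end, with Gbx2 moving from the 5th to the 7th place, behind Il6st and Jak1.

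**Figure D1:**
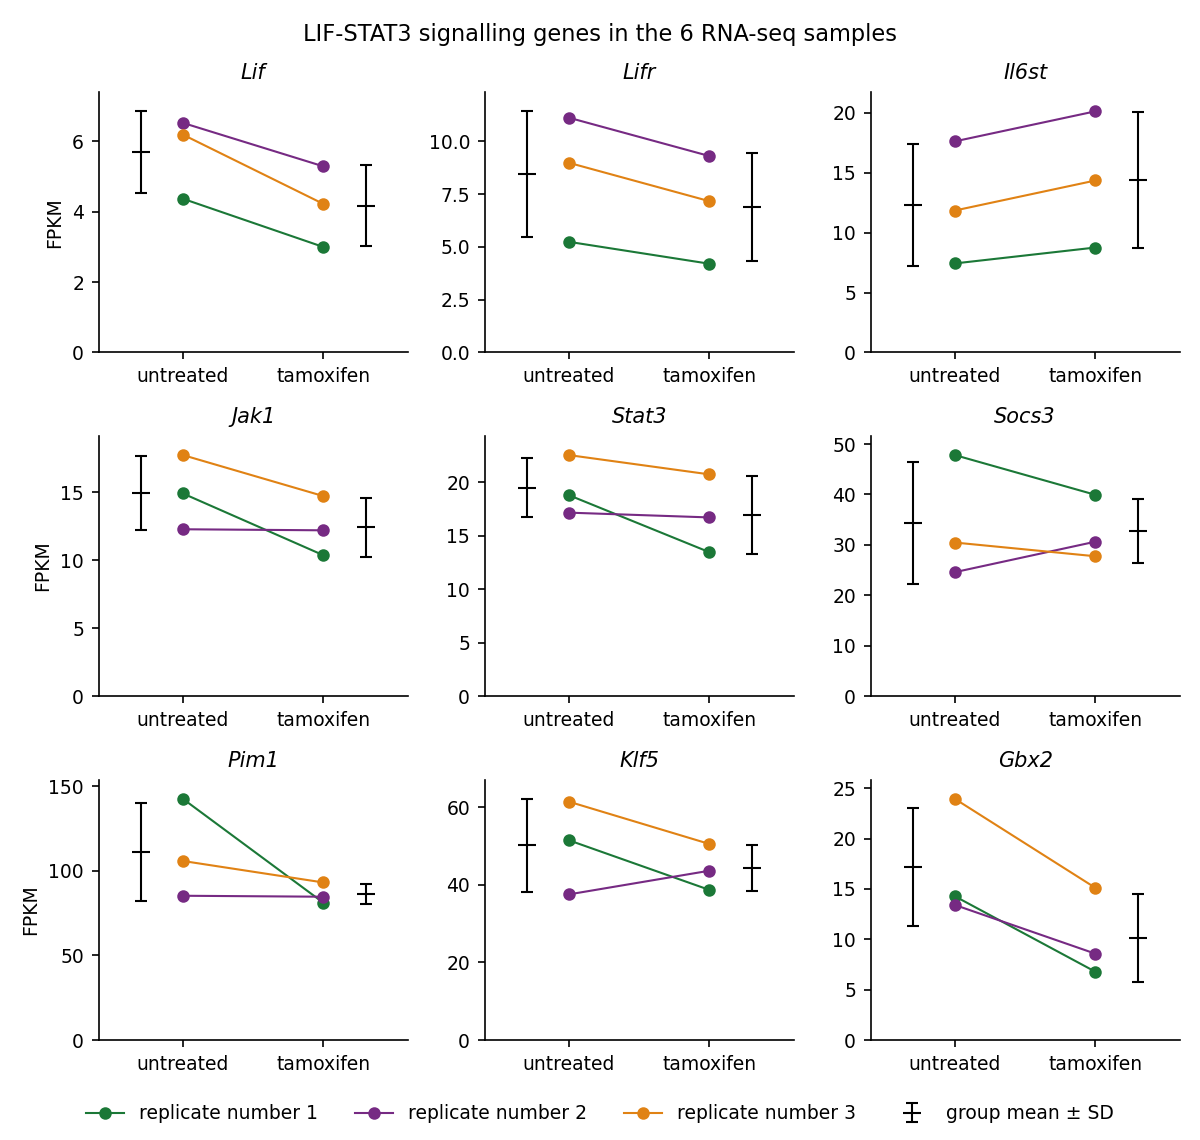
FPKM of the 9 genes in the 3 untreated and 3 tamoxifen samples, each panel with its own axis from 0. Colored points joined by lines are samples with the same replicate number and black bars are group means ± SD (n = 3). All 3 lines of Lif, Lifr, Jak1, Stat3, Pim1 and Gbx2 go down and all 3 of Il6st go up, while in every panel the ranges of the groups overlap.

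Gbx2, a homeobox transcription factor gene that STAT3 induces in ESCs (chr1:91824537-91827751 of mm9, minus strand), had the largest difference between the groups among the 9 genes. Its level was 14.3, 13.4 and 23.9 FPKM in untreated replicates 1, 2 and 3 and 6.77, 8.57 and 15.1 FPKM in the tamoxifen replicates of the same numbers. Replicate 3 was high in both groups, so the ranges overlap, but each tamoxifen sample lay below the untreated sample of its own number, at 47.5%, 63.9% and 63.1% of it. The mean went from 17.2 ± 5.84 to 10.1 ± 4.38 FPKM (SD, n = 3), a log2 fold change of −0.79 on log2(FPKM + 0.1). Without the replicate number this was within the spread of the samples (standard error 0.349, limma adjusted p = 1.0). With the replicate number as a block Gbx2 fell (standard error 0.121, limma adjusted p = 0.011). It was the only one of the 9 genes to pass, where 6.06% of all tested genes fell and 4.33% rose in the same fit. Without replicate number 2 the log2 fold change with the block was −0.86 and the limma adjusted p 0.08, a fit that called 79 genes in all against 1350 with all numbers.

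Lif, the gene of the ligand itself (chr11:4157571-4172517, plus strand), had 4.36, 6.52 and 6.18 FPKM in untreated replicates 1 to 3 and 2.99, 5.28 and 4.21 FPKM in tamoxifen replicates 1 to 3. It was lower in 3 of 3 replicate numbers, at 68.2% to 81.1% of the untreated sample. Its log2 fold change of −0.46 did not pass the test in either fit (limma adjusted p = 1.0 without and 0.057 with the block). The 95% confidence interval with the block ran from −0.74 to −0.17 before adjustment over all genes. The cells were given LIF protein, so this transcript is not the only source of ligand in the dish.

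On the deposited scale both receptor genes kept a steady offset within numbers, in opposite directions. Lifr (chr15:7079572-7147489, plus strand) had 5.24, 11.1 and 8.98 FPKM untreated and 4.20, 9.31 and 7.17 FPKM after tamoxifen, in the order of the numbers. Il6st (chr13:113254278-113297068, plus strand) had 7.43, 17.6 and 11.8 FPKM untreated and 8.76, 20.1 and 14.4 FPKM after tamoxifen. Lifr was thus at 79.8% to 83.7% of the untreated sample and Il6st at 114.2% to 121.1%, while each varied more than that between numbers. The log2 fold changes were −0.30 for Lifr and 0.23 for Il6st, and neither passed without the block (limma adjusted p = 1.0 for both). With the block the limma adjusted p was 0.12 for Lifr and 0.16 for Il6st. The sizes depended on the scale. With the block and every sample scaled to the same sum (TPM), the log2 fold change was −0.196 for Lifr (limma adjusted p = 0.75). For Il6st it was 0.334 (limma adjusted p = 0.47).

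The genes of the kinase and the transcription factor were lower after tamoxifen in 3 of 3 replicate numbers on the deposited scale and did not pass the test. Jak1 (chr4:100824579-100937887, minus strand) had 14.9, 12.3 and 17.7 FPKM untreated and 10.4, 12.2 and 14.7 FPKM after tamoxifen. Stat3 (chr11:100748124-100800825, minus strand) had 18.8, 17.1 and 22.5 FPKM untreated and 13.5, 16.7 and 20.7 FPKM after tamoxifen. Both were lowest in tamoxifen replicate 1. Jak1 was at 69.5% of the untreated sample in number 1 and 99.4% in number 2, and Stat3 at 71.6% and 97.4%, with number 3 in between for both. With the block the log2 fold change of Jak1 was −0.27 (95% confidence interval −0.55 to 0.02, limma adjusted p = 0.19) and that of Stat3 −0.21 (−0.48 to 0.06, limma adjusted p = 0.26). The locus of Jak1 overlaps that of Raver2, and whether the counting used the strand of the reads is not given in the sources used here. STAT3 acts through phosphorylation, which an mRNA level does not show.

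None of the 3 other STAT3 target genes was called. Socs3, the feedback inhibitor (chr11:117827401-117830680, minus strand), had 47.8, 24.6 and 30.5 FPKM untreated and 39.9, 30.6 and 27.8 FPKM after tamoxifen. Replicate 1 was highest in both groups, and the difference within numbers was down, up and down, for a log2 fold change of −0.03 (limma adjusted p = 0.91 with the block). The 95% confidence interval with the block ran from −0.32 to 0.27, and scaling every sample to the same sum (TPM) turned the sign of the difference (0.075).

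Pim1 (chr17:29627990-29632404, plus strand) had 142, 85.2 and 106 FPKM untreated and 81.1, 84.7 and 93.1 FPKM after tamoxifen. Untreated replicate 1 was the high sample, and the tamoxifen samples of numbers 1, 2 and 3 stood at 56.9%, 99.3% and 88.0% of the untreated ones. Without untreated replicate 1 the log2 fold change went from −0.34 to −0.14. Klf5 (chr14:99697910-99712628, plus strand) had 51.5, 37.5 and 61.4 FPKM untreated and 38.7, 43.6 and 50.5 FPKM after tamoxifen, lower in numbers 1 and 3 and higher in number 2. With the block the log2 fold change was −0.34 for Pim1 (limma adjusted p = 0.19) and −0.16 for Klf5 (limma adjusted p = 0.45).

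Read as a list, 0 of the 9 genes were called without the block, where 0.0308% of all tested genes were (3 higher and 1 lower). In that fit 0 of 9 had an unadjusted p under 0.05, against 623 of all 12997 tested genes. With the block 1 fell and 0 rose. On the deposited scale Lif, Lifr, Jak1, Stat3, Pim1 and Gbx2 were lower in all 3 replicate numbers, which is 6 of 9 against 28.2% of all tested genes. For Jak1, Stat3 and Pim1 this rests on near ties in number 2, at 99.4%, 97.4% and 99.3% of the untreated sample. The FPKM sum of number 2 was 1045707 untreated and 929107 after tamoxifen. Scaled to TPM, these 3 genes were therefore higher after tamoxifen in number 2. The share of all genes was not counted on that scale. Il6st was higher in all 3, which is 1 of 9 against 24.8%. None of the 9 had groups that did not overlap, against 5.4% of tested genes lower and 3.09% higher. The median log2 fold change of the 9 genes was −0.27, against −0.02 over all tested genes.

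**Figure D2:**
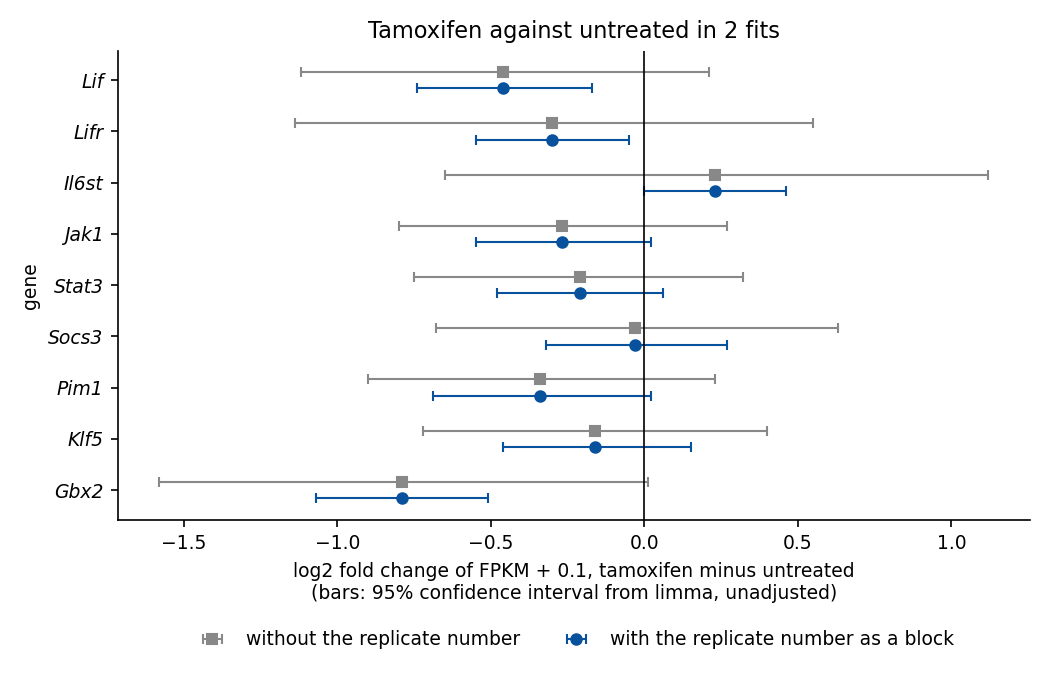
Log2 fold change of FPKM + 0.1 (tamoxifen minus untreated) for each gene, with its 95% confidence interval from limma before adjustment over all genes, without the replicate number (grey squares) and with it as a block (blue circles). The interval of Gbx2 with the block, −1.07 to −0.51, lies farthest from 0, and every interval without the block includes 0.

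Markers of other cell types were read in the same fit, where 4.33% of all tested genes rose and 6.06% fell. Markers of fibroblasts, the cell type used as feeders, summed to 60.8 to 162 FPKM over 12 genes in untreated and 60.3 to 147 FPKM in tamoxifen samples, with 2 of 11 tested lower with the block and Lum under 0.5 FPKM in all samples. Primitive endoderm markers summed to 7.3 to 10.7 FPKM over 7 genes untreated and 4.8 to 9.2 FPKM after tamoxifen. Of 4 tested genes Gata4 and Gata6 fell with the block. Pdgfra (limma adjusted p = 0.18) and Dab2, which was higher in all 3 numbers (limma adjusted p = 0.30), were not called. Sox17, Sox7 and Foxa2 were under 0.5 FPKM throughout. In untreated replicate 2, Pdgfra had 3.58 and Dab2 2.67 of the 8.8 FPKM of this sum. The mean of Pdgfra was lowest in number 1 and highest in number 2, as was the sum of the fibroblast markers. Trophoblast markers summed to 52.1 to 74.8 and 60.2 to 80.2 FPKM over 6 genes, with 3 of 5 tested lower and 1 higher. Most of that sum was Tfap2c, the 1 called higher, at 30.1 to 59.9 FPKM untreated and 46.8 to 70.5 FPKM after tamoxifen. Cdx2, Eomes and Hand1 were the 3 called lower, and Gata3 was not called. Gata6 and Cdx2 were under 0.5 FPKM in every tamoxifen sample, so both entered the test only through the untreated samples. None of the 8 ESC markers was called. Their part in the fall of Gbx2 was not tested, and in bulk RNA fewer cells of a type and less RNA per cell cannot be told apart.

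Replicate numbers differed as well, and on the deposited scale most of all in the receptor genes. A test of the replicate number, in the fit that also holds the group, called 5 of the 9 genes (Lif, Lifr, Il6st, Socs3 and Gbx2), against 62.8% of all tested genes, so the share of the list is near that of the tables as a whole. Il6st varied most on that scale, with means over the 2 groups of 8.09, 18.9 and 13.1 FPKM in numbers 1, 2 and 3 (2.33-fold, limma adjusted p = 0.0018). Lifr followed the same order at 4.72, 10.2 and 8.08 FPKM (2.16-fold, limma adjusted p = 0.0022).

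The ligand and receptor genes shared one order and Socs3 had another. Lif, like Il6st and Lifr, was lowest in number 1 (3.68 FPKM) and highest in number 2 (5.90 FPKM, limma adjusted p = 0.015). Socs3 was highest in number 1 at 43.9 FPKM, with 27.6 and 29.1 FPKM in numbers 2 and 3 (limma adjusted p = 0.014). Gbx2 stood apart from both, with 10.5 and 11.0 FPKM in numbers 1 and 2 and 19.5 FPKM in number 3 (limma adjusted p = 0.0036). Jak1, Stat3 and Klf5 were also highest in number 3, without passing the test (limma adjusted p = 0.077, 0.056 and 0.08), and Pim1 did not pass either (limma adjusted p = 0.28).

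**Figure D3:**
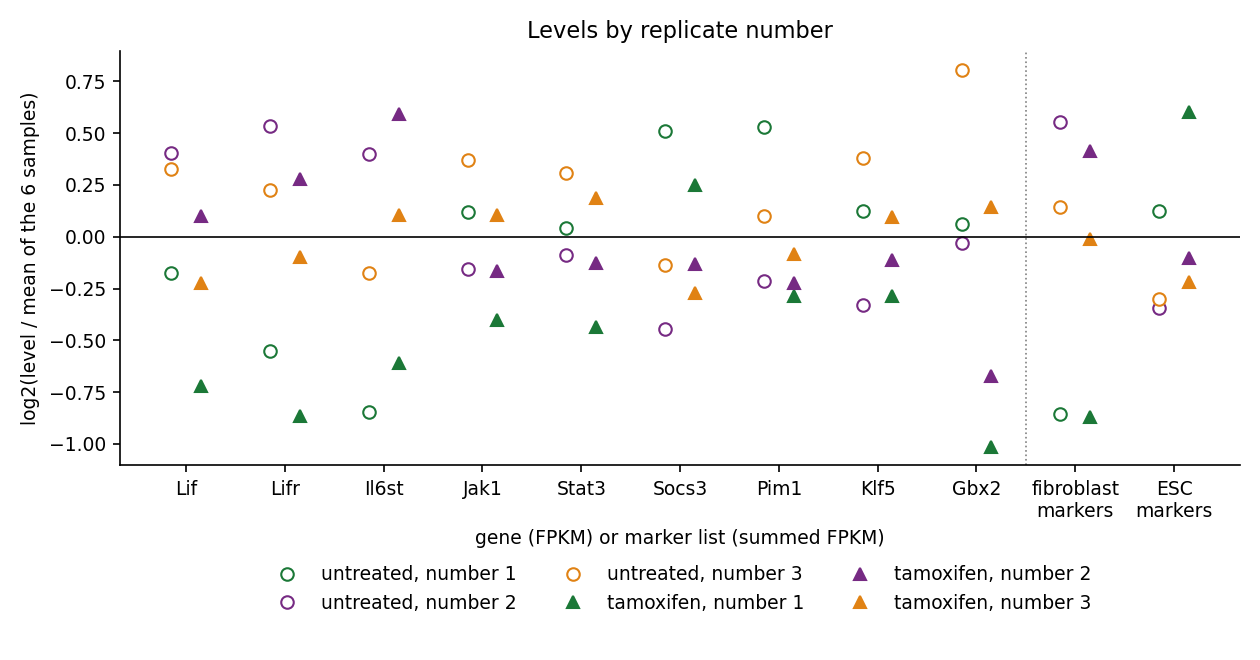
Level of each gene and of 2 marker sums in each sample, as log2 of its ratio to the mean of the 6 samples. Open circles are untreated and filled triangles tamoxifen samples, colored by replicate number. Number 1 is lowest within each group for Lif, Lifr, Il6st and the fibroblast markers, and highest within each group for Socs3 and the ESC markers.

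Fibroblast markers followed the order of Lif, Lifr and Il6st. Their sum was 60.8, 162 and 122 FPKM in untreated numbers 1, 2 and 3 and 60.3, 147 and 109 FPKM in the tamoxifen samples. The mean of 11 of the 12 markers was lowest in number 1, and that of 9 of 12 was highest in number 2. Dcn, the gene of the matrix proteoglycan decorin, had 2.19, 7.74 and 6.59 FPKM in untreated numbers 1 to 3. The sum of the ESC markers went the other way, with 3990, 2885 and 2976 FPKM untreated and 5555, 3412 and 3149 FPKM after tamoxifen. Much of it was Dppa5a, at 2221 FPKM in untreated and 3534 FPKM in tamoxifen number 1. The means of 2 of the 8 ESC markers, Tdgf1 and Fgf4, were highest in number 2, like most fibroblast markers. The part of either cell type in the levels of Lif, Lifr, Il6st or Socs3 was not tested.

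The scale of a sample also bears on these differences. The FPKM sums of number 1 were the lowest of each group, and scaling each sample to TPM moved the median log2 difference between number 2 and number 1, over all tested genes, from −0.05 to −0.79. On that scale Lif, Lifr and Il6st no longer passed (limma adjusted p = 0.73, 0.29 and 0.22) and the number 2 minus number 1 difference of Lif turned to −0.06. Scaling to TPM shifts this difference by nearly the same amount for every gene, so Lif stayed above the median of all genes by construction. Socs3 passed on that scale (limma adjusted p = 3.1e-07), as did Gbx2, Jak1, Stat3, Pim1 and Klf5. These are 6 of the 9 genes, against 68.6% of all tested genes in the same fit, so the share is near that of all genes. The genes farthest from 0 changed as well. The number 2 minus number 1 difference was then −1.42 for Socs3 and −1.09 for Pim1, against 0.46 for Il6st and 0.36 for Lifr. The order of the 9 genes by this difference was that of the deposited scale, which the nearly equal shift of all genes fixed in advance. Median-ratio scaling and quantile normalization left Lif, Lifr, Il6st, Socs3 and Gbx2 past the threshold and in the same order of numbers 1 and 2. Stat3 passed as well under both (limma adjusted p = 0.045 and 0.047), for 6 of the 9 genes in each, against 58.7% and 58.3% of all tested genes.

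The genes most like Socs3 over the 6 samples, by Pearson correlation of log2(FPKM + 0.1) among all tested genes, were Klc4 (0.994), 5031439G07Rik (0.992), Gnaz (0.987), Sbk1 (0.987) and Vps39 (0.987). Klc4, a kinesin light chain gene, had 9.57, 6.48 and 7.32 FPKM untreated and 8.98, 7.46 and 7.09 FPKM after tamoxifen, with the same high number 1. Those most like Lifr were Sfmbt2 (0.999), Col16a1 (0.998) and Slc39a14 (0.997), and those most like Lif were Zfp612 (0.997), A930011O12Rik (0.996) and Peg10 (0.992). Sfmbt2, a polycomb group gene, had 6.46, 18.3 and 14.5 FPKM untreated and 4.83, 14.6 and 9.80 FPKM after tamoxifen. These are descriptions over 6 samples that share replicate numbers, taken from the top of 12997 genes.

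The rest of the pathway was read from 7 lists of 63 genes, 57 of them tested. Without the block 0 of the 57 were called, against 4 of all 12997 tested genes. In that fit 8 of the 57 had an unadjusted p under 0.05, against 623 of all 12997. With the block 7 rose and 6 fell, where 4.33% of all tested genes rose and 6.06% fell, and 44 did not pass. Without replicate number 2 the block called 1 of the 57, Pim2, which was called in all 8 fits with the block. The median log2 fold change of the 57 genes was −0.07.

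Of 4 tested ligands of the gp130 family 1 rose, against 4.33% of all tested genes, and none fell. Osm, the gene of oncostatin M, was low in both groups, at 0.33, 0.32 and 0.085 FPKM untreated and 1.69, 1.87 and 1.20 FPKM after tamoxifen, and rose with the block (log2 fold change 2.37, limma adjusted p = 0.0040, and 0.29 without the block). Its groups did not overlap. Every untreated value was under the 0.5 FPKM of the filter, so Osm entered the test only through the tamoxifen samples, where it was higher. Ctf1, the cardiotrophin-1 gene and the highest of the list, had 2.52 to 3.01 FPKM untreated and 2.69 to 4.15 FPKM after tamoxifen. Il11, Ctf1 and Clcf1 were tested and not called, and Il6, Il27, Ebi3 and Cntf did not pass the filter. Among other receptors, Cntfr, the ciliary neurotrophic factor receptor gene and the highest of its list, went from 15.2 ± 3.43 to 9.63 ± 1.02 FPKM (SD, n = 3) and fell with the block (limma adjusted p = 0.024), but not after scaling to TPM. Il11ra1 and Osmr were not called, and Il6ra and Il27ra did not pass the filter.

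Of 9 other JAK and STAT genes 1 rose, against 4.33% of all tested genes, and none fell, against 6.06%. Stat4 went from 3.95 ± 1.28 to 6.15 ± 1.22 FPKM (SD, n = 3) and rose with the block (limma adjusted p = 0.029). Stat6, the highest of that list, had 6.64 to 11.2 FPKM untreated and 8.06 to 9.39 FPKM after tamoxifen and was not called. Of 14 inhibitors 2 rose and 1 fell, against the same shares. Ptpn6, which encodes the phosphatase SHP-1, had 10.0, 7.67 and 7.59 FPKM untreated and 20.5, 17.0 and 11.2 FPKM after tamoxifen, without overlap, and rose with the block (log2 fold change 0.90, limma adjusted p = 0.010). Ptpn2, another phosphatase gene, rose (0.36, limma adjusted p = 0.045) and Socs5 fell (−0.49, limma adjusted p = 0.042), both in 4 of 8 fits with the block. Pias2 was the highest of the inhibitors, at 41.4 to 59.6 FPKM untreated and 40.1 to 59.8 FPKM after tamoxifen, and was not called. None of the 9 genes of the RAS-ERK and PI3K arms was called, Gab1, the highest, having 70.0 to 76.4 FPKM untreated and 59.0 to 67.9 FPKM after tamoxifen.

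Other targets of STAT3 changed in both directions, with 1 of 12 higher, against 4.33% of all tested genes, and 4 lower, against 6.06%. Pim2, a kinase gene related to Pim1, had 15.2, 14.9 and 28.4 FPKM untreated and 33.4, 44.2 and 84.0 FPKM after tamoxifen, without overlap (log2 fold change with the block 1.42, limma adjusted p = 0.0025). Pim1 and Pim2 thus had opposite signs, although Pim1 was not called. Myc, the proto-oncogene and a LIF target in ESCs, had 11.4, 16.1 and 29.6 FPKM untreated and 5.62, 9.04 and 17.3 FPKM after tamoxifen. It shared with Gbx2 a high replicate 3 and a lower tamoxifen sample in each number, and fell with the block (log2 fold change −0.87, limma adjusted p = 0.0049). Icam1, a cell adhesion gene, fell by 0.93 and Junb, an AP-1 gene, by 0.71 in log2 terms (limma adjusted p = 0.0042 and 0.011 with the block), each without overlap of the groups. Bcl3 fell by 0.50 (limma adjusted p = 0.036). The calls of Junb and Bcl3 were lost after scaling to TPM, and that of Bcl3 also without replicate number 3. Mcl1, the highest of the list, had 153 to 195 FPKM untreated and 145 to 161 FPKM after tamoxifen and was not called. Klf4, a further LIF target in ESCs, had 28.3 ± 3.40 and 28.3 ± 2.78 FPKM (SD, n = 3) and was not called.

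Naive pluripotency factors had 2 of 6 genes higher, against 4.33% of all tested genes, and none lower, against 6.06%. Prdm14 had 2.93, 2.30 and 2.52 FPKM untreated and 5.86, 5.52 and 4.25 FPKM after tamoxifen and rose with the block (log2 fold change 0.98, limma adjusted p = 0.010). Klf2 had 70.9, 58.3 and 72.2 FPKM untreated and 135, 98.0 and 83.9 FPKM after tamoxifen and rose with the block (0.63, limma adjusted p = 0.032), a call lost under median-ratio scaling and quantile normalization. In both genes the groups did not overlap. Nanog, the highest of the list, had 188, 104 and 153 FPKM untreated and 203, 194 and 205 FPKM after tamoxifen, without overlap, and did not pass (limma adjusted p = 0.079 with the block).

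**Figure D4:**
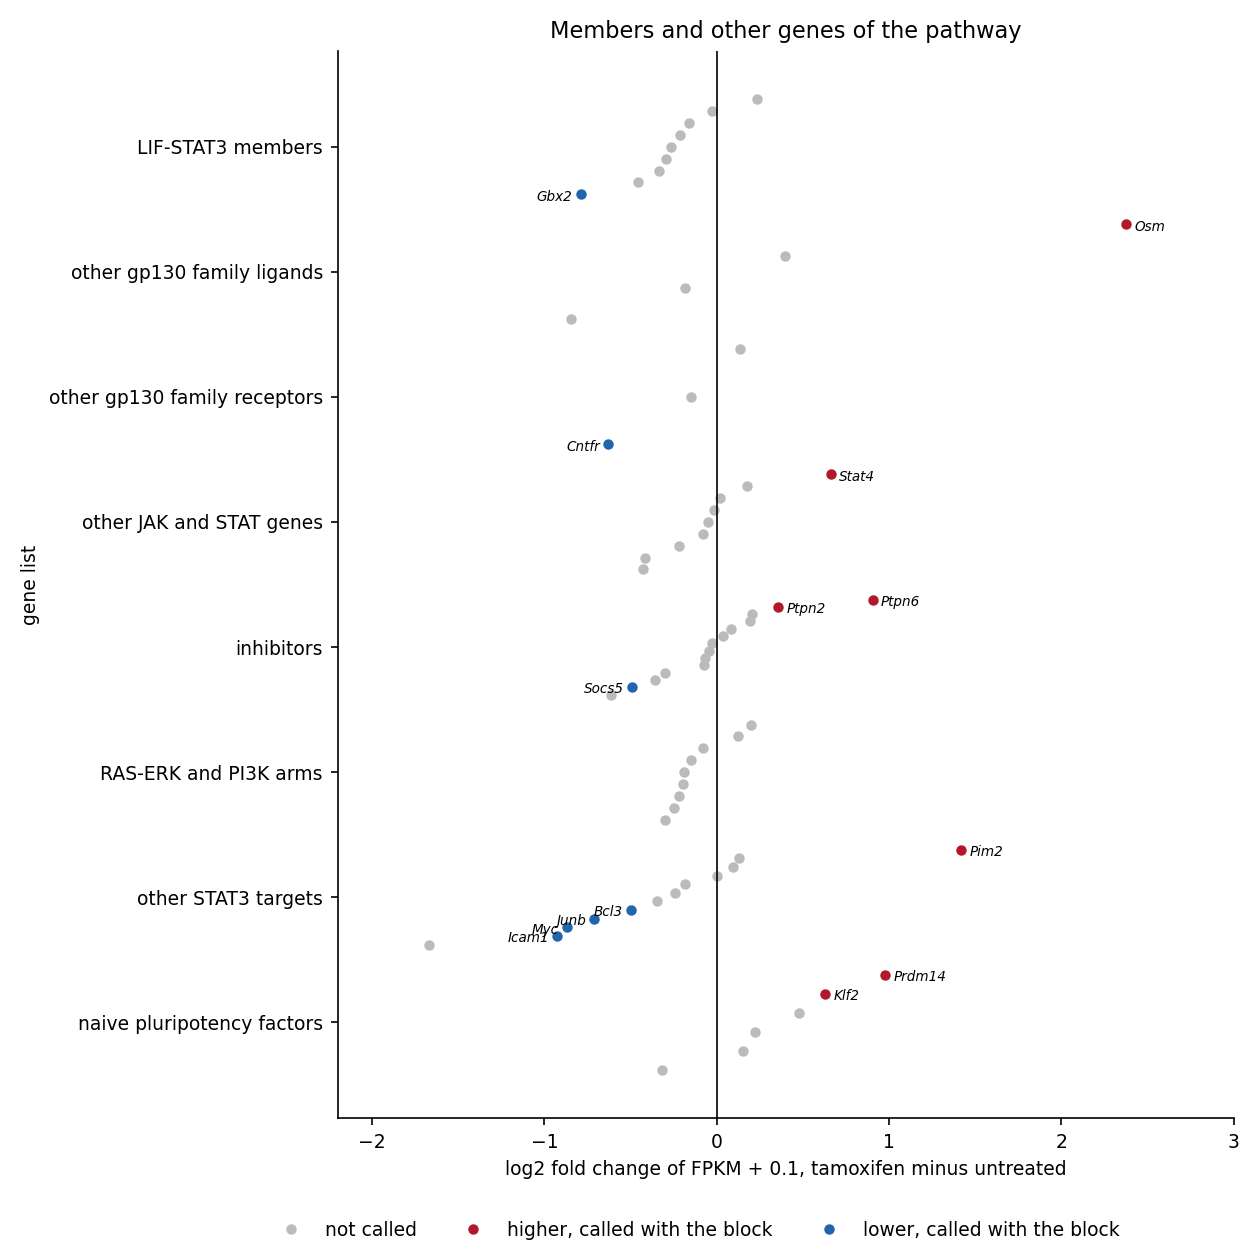
Log2 fold change of FPKM + 0.1 (tamoxifen minus untreated) for every tested gene of the 9 and of 7 other lists, 1 point per gene, colored where called in the fit with the replicate block. Osm at 2.37 and Pim2 at 1.42 lie farthest from 0 among called genes. Osm was at 0.5 FPKM or more in tamoxifen samples only. The grey point at −1.67 is Cebpd, which is listed at 0 FPKM in 3 of the 6 samples.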

How the data were processed

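RNA-seq was measured in 3 samples labelled untreated and 3 labelled tamoxifen. The authors aligned paired-end reads to mm9 with TopHat2 and, per the submitters' processing notes, used Cufflinks and Cuffdiff 2.1.1 on refGene models. The deposited tables hold 1 FPKM value per row with bounds and a status. The bounds were not used, because 7.88% to 9.61% of rows per sample lie outside their own. Read counts are unknown, so no interval from counts is given. Steps of single fragments in genes under 0.2 FPKM placed the depth of 5 samples, roughly, at 0.65 to 0.95 of that of untreated replicate 1, the deepest.

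FPKM of rows that share a gene name were added up. Failed rows are written as 0, so 6 names with one were left out. Genes with at least 0.5 FPKM in at least 3 samples entered linear models on log2(FPKM + 0.1), fitted by limma 3.58.1 (R 4.3.3, eBayes with trend). P-values were adjusted by Benjamini-Hochberg over all 12997 genes, with a threshold of 0.05. Changes of low genes are understated on this scale. No further normalization was applied. The replicate number was added as a block in a further fit, and tested there by a moderated F-test over its 2 coefficients. Deviations from the group means correlated by 0.544, 0.605 and 0.506 over genes for samples with the same number, taken from the labels, so the numbers were treated as pairing the samples. The blocked value stands beside each result whose call it changes.

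The 9 genes and the lists were chosen with earlier results of these data known. Named are all 9 genes, Kdm2b, every gene of the other pathway lists called with or without the block, the highest gene of each list, untested genes, and the 5 genes nearest in pattern to Socs3 and 3 each to Lifr and Lif. Klf4, Dcn, Gata4, Gata6, Pdgfra, Dab2, Cdx2, Eomes, Hand1, Tfap2c, Dppa5a, Tdgf1, Fgf4, Raver2 and the genes named only as not called were chosen after their values were seen. Hras is listed as Hras1 in the tables. A further gene of the pathway is not reported here and is in no list count. Deposited locus starts count from 0, so 1 was added. Sequence came from NCBIM37 and exons from its GENCODE annotation. The fits were tested on simulated data. Alternatives were other pseudocounts, filters and scalings, eBayes without a trend, the highest row per name, the block and leaving out each sample or number. The block with scaling to TPM was added after seeing the data. Other calculations used Python 3.11.15, pandas 2.3.3, numpy 2.4.6, scipy 1.17.1 and matplotlib 3.10.9. The 17 ChIP-seq samples were not analysed here.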

Additional observations from a re-analysis of the deposited data

How the results depend on the processing

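With the replicate block 1 of the 9 genes, Gbx2, was called against 0 without it, and 1 was called with the block under a pseudocount of 1, median-ratio scaling, quantile normalization, scaling to TPM, without replicate 1 or without replicate 3 (0 without replicate 2). Over all genes tested, calls went from 4 to 1350 with the block, 1590 with the block and a pseudocount of 1, 1090 with median-ratio scaling, 1144 with quantile normalization and 763 with scaling to TPM, and to 1755, 79 and 837 with the block without replicate 1, 2 or 3. They were 2 with a pseudocount of 1 and 0 at 1 FPKM or more in all samples, and 2 to 10 with a sample left out. The cause was not tested. Of the other pathway genes the block called 13, with a pseudocount of 1 also 13, with median-ratio scaling 12, with quantile normalization 10, with scaling to TPM 10 and without a number 1 to 16. Differences among replicate numbers called 8 of the 9 genes in place of 5 at 1 FPKM or more in all samples, where the share of all tested genes went from 62.8% to 73.9%. Signs turned only for differences within the spread of the samples. Socs3 went from −0.026 to 0.075 on scaling to TPM with or without the block and to 0.091 and 0.028 with the block without replicate 1 or 3. Fits with 1 sample left out had no block, so the replicate numbers were unbalanced between the groups. There Socs3 ranged from −0.24 (without untreated replicate 2) to 0.24 (without untreated replicate 1). Il6st ranged from −0.083 (without untreated replicate 1) to 0.55 (without tamoxifen replicate 1). Klf5 ranged from −0.35 (without untreated replicate 2) to 0.002 (without untreated replicate 3). Lifr ranged from −0.60 (without untreated replicate 1) to 0.018 (without tamoxifen replicate 1). With the block and number 1, 2 or 3 left out, Il6st kept its sign at 0.233, 0.254 and 0.213. Lifr did so at −0.288, −0.317 and −0.283. Lif, Jak1, Stat3, Pim1 and Gbx2 kept their sign in all 24 alternatives, Gbx2 between −1.11 and −0.53. Scaling to TPM moved the median log2 fold change of all genes from −0.02 to 0.08. Where a sample was left out, the remaining samples of its group were assumed to vary like those of the other.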
